A study of Mus musculus with 9 samples.

Results

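The 6 hemibrain libraries compared here came from 3 aged-repopulated and 3 young control C57BL/6J mice, out of 9 libraries in all, and the comparison asked which transcripts of an old brain still differed from those of a young brain after its microglia had been replaced. Aged-repopulated mice were 24 months old, came from NIA, and ate chow with PLX5622 for 2 weeks and then control chow for 4 weeks. Young controls were 5 months old by the sample labels, came from JAX, and ate control chow for 6 weeks. The other 3 libraries were aged controls (24 months, NIA, control chow for 6 weeks), which entered the same fit and are quoted beside the results as a description. The aged-repopulated and young control mice therefore differed in age, supplier and PLX5622 treatment, and these cannot be told apart in this comparison. The genes described are all 689 of the deposited table, with levels in RPKM (reads scaled by gene length and by library size).

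Microglia are the resident macrophages of the brain. They depend on signals through the colony-stimulating factor 1 receptor, which PLX5622 inhibits, and when the inhibitor is withdrawn the surviving cells divide and refill the tissue. In old brain, microglia and other cells are known to carry more complement, lysosomal, antigen-presentation and interferon-linked transcripts than in young brain.

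Most genes of the table lay close to their young level in the aged-repopulated brains. The log2 difference was smaller than 0.1 in either direction for 462 genes (67.1%), and the median over all 689 genes was 0.04. The 95% confidence interval of the difference lay within 0.3 of 0 on both sides for 601 genes, with a median half-width of 0.10. By limma, with Benjamini-Hochberg adjusted p values under 0.05, 34 of 689 genes differed (4.93%), of which 29 were higher (4.21%) and 5 were lower (0.726%) in the aged-repopulated brains. The higher genes included 8 of microglia and macrophages, 4 of antigen presentation and the interferon response and 3 of the *Pisd* family, and the lower genes were *Btg2*, *Dusp1*, *Slco1a4*, *Ciart* and *Tfrc*. Their absolute log2 differences ran from 0.15 to 1.24, with a median of 0.44.

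The share of higher calls depended on how the libraries were scaled. It was 85.3% with RPKM as deposited, 37.7% with each library centred on its median (23 higher, 38 lower), 41.9% with quantile normalization (18 higher, 25 lower) and 43.6% after a correction for transcript length (24 higher, 31 lower). It was 73.3% in a fit of only the 6 libraries compared (33 higher, 12 lower) and 66.7% without young control replicate 1 (14 higher, 7 lower). Of the 34 genes, 21 were called under all 3 scalings, 17 of them higher. The count of 34 rested on the young controls in particular, since it was 11 without young control replicate 2, 12 without replicate 3 and 21 without replicate 1. It was 59 without aged-repopulated replicate 2 and 53 without aged control replicate 1. The 9 genes called with every one of the 9 libraries left out in turn were *Pisd-ps1*, *Pisd-ps2*, *Pisd*, *Ctss*, *Tyrobp*, *Ifi27*, *Ctsz*, *Sat1* and *Slco1a4*, and all 9 were also called under all 3 scalings.

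**Figure D1:**
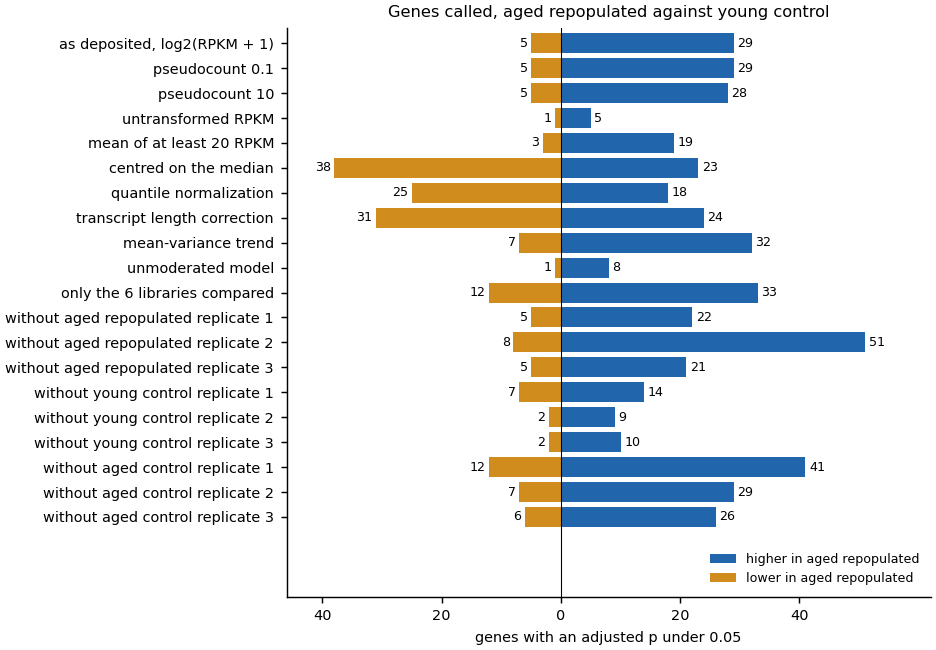
Number of genes with an adjusted p under 0.05 (horizontal axis, counted to the right for genes higher and to the left for genes lower in aged-repopulated brains) under each setting of the analysis. The deposited scale gave 29 higher and 5 lower, and the 3 rescaled fits gave more lower than higher calls.

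The libraries of the groups did not overlap for 294 genes (42.7%), with every aged-repopulated library above every young control for 217 (31.5%) and below for 77 (11.2%). All 34 called genes were among them. The table holds genes that the authors had already called on these libraries together with others, so neither share describes the transcriptome. Adjusted p values here and below were computed within that selected set. The calls in part repeat the selection, and the adjusted p values do not hold their usual error rate. Summed over the table, RPKM was between 22861 and 23632 in the aged-repopulated libraries, between 22242 and 22330 in the young controls and between 23629 and 24853 in the aged controls. Read depth is unknown. The authors' minimum of 10 RPKM was applied across libraries by a rule not given in the sources used here. *Lgals3bp*, *Tyrobp*, *Laptm5*, *Pisd-ps2*, *Itgb5*, *Klf15* and *Bcl6* averaged below 10 RPKM in young controls and above it in aged-repopulated brains. *Btg2* averaged above it in aged controls alone, and *Ciart* in both control groups but not after repopulation. Such genes may have entered through the group where they are high. The standard errors rest on the spread between mice within each group, pooled over all libraries of the fit and moderated across genes.

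**Figure D2:**
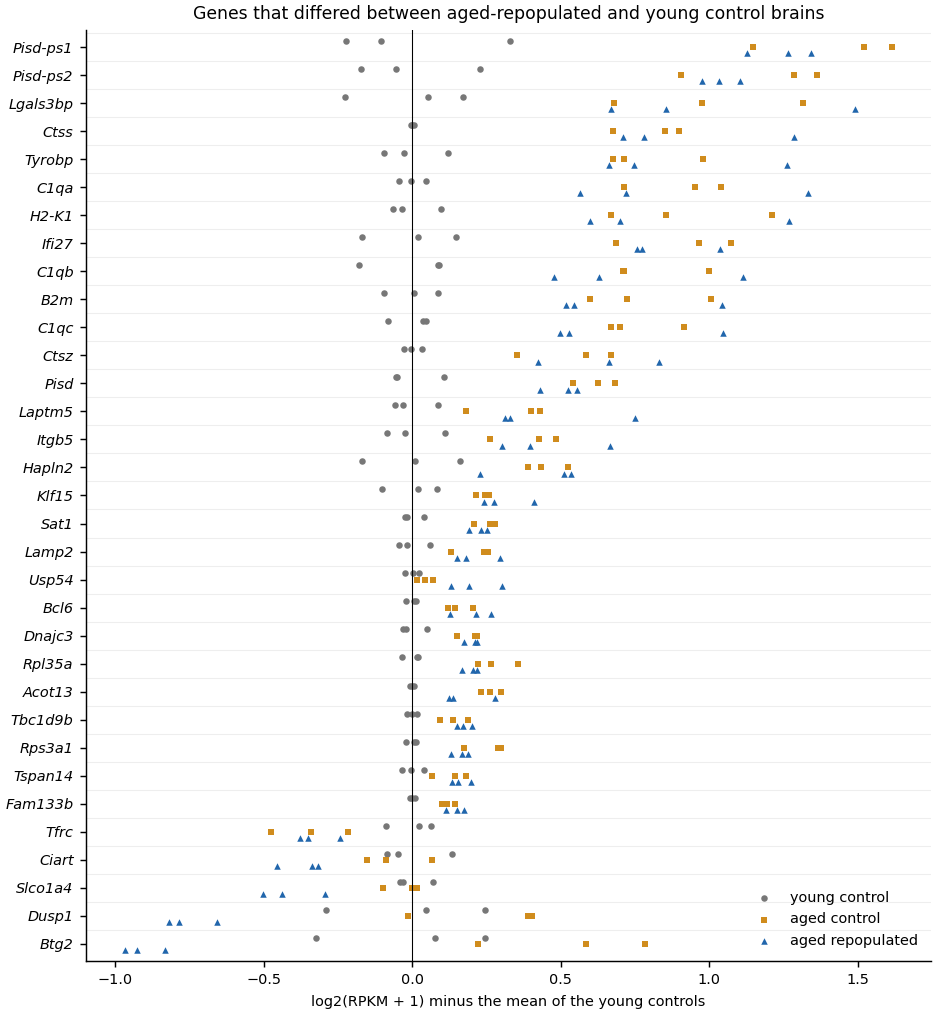
The called genes, 33 of the 34, each library drawn as its log2(RPKM + 1) minus the mean of the 3 young controls (horizontal axis, log2 units). Grey circles are young controls, orange squares aged controls and blue triangles aged-repopulated brains. The genes from Pisd-ps1 to Fam133b lie to the right of the young controls and the 5 at the bottom to the left.

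Microglial and macrophage genes were the largest group among the higher genes. Of the 48 genes listed for these cells, 11 were in the table. Of these, 8 were higher at an adjusted p under 0.05 and none was lower, beside 4.21% of all genes called higher. The median log2 difference of the 11 was 0.64, against 0.04 over the table. *Ctss* encodes cathepsin S, a lysosomal protease that macrophages use in antigen processing, and lies on GRCm38 at chr3:95526786-95556403. It was 69.7, 46.4 and 48.8 RPKM in the aged-repopulated libraries and 28.0, 28.1 and 27.9 RPKM in the young controls. The lowest aged-repopulated library was thus well above a narrow young range. The log2 difference was 0.93 with a standard error of 0.13 (adjusted p = 0.00447, limma), a ratio of means of 1.96, and the aged control against young control difference in the same fit was 0.81.

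*Tyrobp*, the signalling adaptor of TREM2 and other myeloid receptors (chr7:30413760-30417585), was 25.2, 16.4 and 17.4 RPKM after repopulation and 9.26, 10.9 and 9.75 RPKM in young brains. The groups did not overlap, and the log2 difference was 0.89 ± 0.14 (SE), (limma, adjusted p = 0.0089) beside an aged control difference of 0.79. *C1qa*, *C1qb* and *C1qc* encode the chains of C1q, the recognition molecule of the classical complement pathway, and sit side by side at chr4:136880129-136898803. *C1qa* was 48.1, 27.8 and 31.1 RPKM in aged-repopulated and 17.9, 18.4 and 19.2 RPKM in young control libraries. All 3 aged-repopulated libraries exceeded all young controls, replicate 1 by the most. The log2 differences were 0.87 for *C1qa*, 0.74 for *C1qb* and 0.69 for *C1qc*, at limma adjusted p of 0.0181, 0.0212 and 0.0181. In aged controls the same genes stood 0.90, 0.81 and 0.76 above young controls on the log2 scale.

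Other lysosomal genes of the group differed by less. *Ctsz*, which encodes cathepsin Z, was 28.9, 21.6 and 25.7 RPKM after repopulation and 15.8, 16.2 and 15.5 RPKM in young brains, a log2 difference of 0.64. *Laptm5*, a lysosomal membrane protein of blood-derived and microglial cells, was 14.3, 10.4 and 10.3 RPKM against 7.90, 7.73 and 8.66 RPKM, a log2 difference of 0.46 at an adjusted p of 0.0454. Neither gene overlapped between the groups.

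The other 3 members of the list did not pass the test. *Csf1r*, the receptor that PLX5622 inhibits, was 18.9, 16.03 and 15.7 RPKM in aged-repopulated and 14.5, 15.7 and 15.1 RPKM in young control brains. Replicates 2 and 3 of the aged-repopulated group lay just above the highest young control, and the log2 difference was 0.15, with a 95% interval from -0.0035 to 0.30 (adjusted p = 0.179, limma). *Grn*, which encodes progranulin, differed by 0.23 (adjusted p = 0.11) and *Lgmn*, the lysosomal protease legumain, by 0.06 (adjusted p = 0.434), and both overlapped between the groups. *Cx3cr1*, *P2ry12*, *Tmem119*, *Aif1* and *Trem2* are not rows of the table and are not analysed here.

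Aged-repopulated replicate 1 had the highest level of all 11 microglial genes within its group. The summed RPKM of the 11 was 423 in that library, 305 and 330 in the other aged-repopulated libraries, between 236 and 243 in the young controls and between 316 and 371 in the aged controls. Without replicate 1 all 8 genes were still called, with a median log2 difference of the list of 0.51. With an unmoderated model or with untransformed RPKM none of the 11 passed the adjusted threshold, and neither did any member of the interferon and immediate early lists described below. Without young control replicate 1, 2 or 3 the number called was 5, 3 and 3, and *Ctss*, *Tyrobp* and *Ctsz* were called in every leave-out. In bulk tissue, more cells of a type and more RNA per cell cannot be told apart.

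The site of PU.1, a lineage factor of macrophages, was searched as the letters GAGGAAGT on both strands of the 250 bases before each RefSeq gene start. It occurred before 1 of the 7 microglial genes of the table that have a promoter sequence, *C1qc*, and before 2.42% of 27025 mouse promoters. The stretch is shown on the gene's own strand (GRCm38.p6, minus strand, chr4:136893087-136893124) with the match in capitals, which read as the reverse complement of the searched letters.
C1qc: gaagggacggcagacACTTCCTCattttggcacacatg

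Genes of MHC class I antigen presentation and of the interferon response formed the next group. Of 37 listed genes, 9 were in the table, and 4 of these were called higher after repopulation, beside 4.21% of all genes. The 4 were *Lgals3bp*, *H2-K1*, *Ifi27* and *B2m*. The differences of the other 5 were above 0 and not called, and the median of the 9 was 0.57. *B2m*, the light chain shared by all MHC class I molecules (chr2:122147686-122153083), was 144, 102 and 99.7 RPKM after repopulation and 64.9, 69.7 and 73.7 RPKM in young brains. Its groups were separate, with a log2 difference of 0.70 ± 0.14 (SE; adjusted p = 0.0206, limma) and an aged control difference of 0.78.

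*H2-K1*, a classical MHC class I heavy chain (chr17:33996017-34000347), was 26.1, 17.3 and 16.1 RPKM in aged-repopulated and 11.0, 9.77 and 9.999 RPKM in young control libraries. The log2 difference was 0.86 (adjusted p = 0.0206). *H2-D1*, another class I heavy chain (chr17:35262730-35267499), was 29.3, 19.8 and 19.3 RPKM against 15.7, 15.6 and 13.6 RPKM. *H2-D1* did not overlap either, but its difference of 0.55 was not called (adjusted p = 0.0642). The longest transcripts of the pair share 6.52% of their 50-base stretches, and how reads common to such relatives were counted is not given in the sources used here, so the split between them is uncertain.

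*Ifi27*, an interferon-inducible gene (chr12:103434211-103440239), was 34.4, 28.5 and 28.2 RPKM after repopulation and 18.1, 16.5 and 14.4 RPKM in young brains. Its log2 difference of 0.86 ± 0.11 (SE) had an adjusted p of 0.00439, and the spread of the aged-repopulated libraries was smaller than for *H2-K1* or *B2m*. *Lgals3bp*, a secreted galectin-binding glycoprotein (chr11:118392751-118402092), was 18.2, 11.3 and 9.81 RPKM against 6.67, 6.06 and 4.82 RPKM, a log2 difference of 1.01 (adjusted p = 0.0238). *Ifitm3*, an antiviral membrane protein, was 16.3, 10.9 and 9.27 RPKM against 8.35, 7.62 and 7.00 RPKM and was not called (log2 difference 0.57, adjusted p = 0.0665). *Ly6e*, a surface protein, was 35.5, 35.4 and 35.9 RPKM against 29.8, 29.1 and 34.2 RPKM and was not called (0.20, adjusted p = 0.0735). The related *Ly6a* and *Ly6c1* overlapped between the groups, with log2 differences of 0.29 and 0.06. Against young controls, aged controls stood 0.59 higher in *Ly6a* and 0.37 higher in *Ly6c1*.

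Aged-repopulated replicate 1 was again the highest of its group, for 8 of the 9 genes, with a summed RPKM of 330 against 245 and 238 in the others and 173 to 178 in young controls. This is the library with the highest microglial sum, and the part of the microglial level in these values was not tested. Without it, all 4 genes were called and the median was 0.37. Without young control replicate 1 or 2 only *Ifi27* was called, without young control replicate 3 the count was 2, and without aged-repopulated replicate 3 it was 5. With quantile normalization 2 of the 9 were called, and the median kept its direction there and under the other scalings (0.50 to 0.53).

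**Figure D3:**
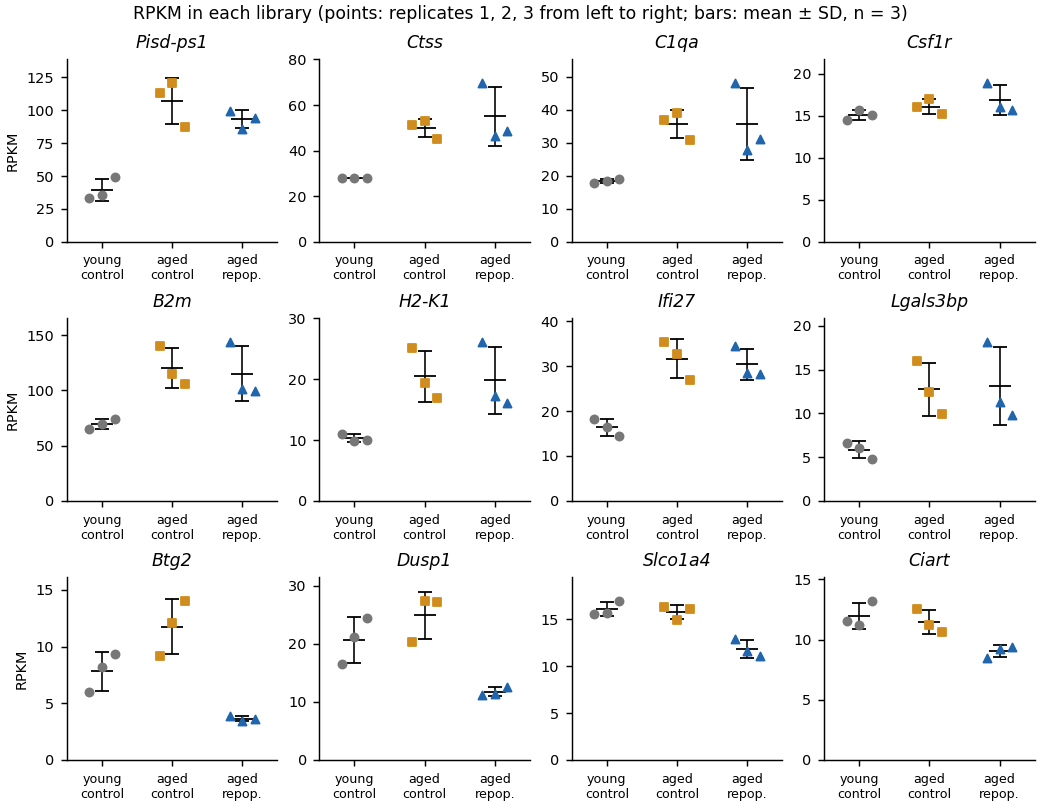
RPKM (vertical axes, starting at 0) of 12 genes in each library, in young control, aged control and aged-repopulated brains. Points are libraries, replicates 1 to 3 from left to right, and bars are the mean and SD (n = 3). Aged-repopulated replicate 1 is the highest of its group for Ctss, C1qa, B2m, H2-K1 and Lgals3bp, and Btg2, Dusp1, Slco1a4 and Ciart lie below both control groups.

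The core that interferon regulatory factors read, searched as AANNGAAA on both strands after the values were known, occurred in the 250 bases before the start of 4 of the 6 members with a RefSeq promoter, and in 21.6% of 27025 promoters. The matches are shown as a description of these promoters. Those of *Lgals3bp* and *H2-D1* fall inside the gene intervals given above, which come from another annotation than the RefSeq starts. Each line gives the strand of the gene with the match in capitals and 15 bases beside it where the window allows, from GRCm38.p6: *B2m* on the plus strand at chr2:122147535-122147572, *Lgals3bp* on the minus strand at chr11:118401960-118401988, *H2-K1* on the minus strand at chr17:34000415-34000452 and *H2-D1* on the plus strand at chr17:35262929-35262966.
B2m: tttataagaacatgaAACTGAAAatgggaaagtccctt
Lgals3bp: catgtgttttctgaaAATCGAAActaggt
H2-K1: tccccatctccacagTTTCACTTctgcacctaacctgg
H2-D1: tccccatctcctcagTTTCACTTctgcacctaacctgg
In *H2-K1* and *H2-D1* the match lies on the opposite strand, so the capitals read as the reverse complement of the searched letters. An NF-kB site, searched as GGGGATTCC, was found before *H2-K1* and *H2-D1* alone among the 6 and before 0.222% of all promoters.

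All 3 *Pisd* genes of the table were called higher, beside 4.21% of all genes. *Pisd* encodes the mitochondrial enzyme that makes phosphatidylethanolamine from phosphatidylserine, and *Pisd-ps1* and *Pisd-ps2* are annotated as its pseudogenes. *Pisd-ps1* (chr11:3125904-3131004) was 99.8, 85.7 and 94.4 RPKM after repopulation and 33.0, 35.9 and 48.9 RPKM in young brains. Its difference was the largest of the comparison, 1.24 ± 0.15 on the log2 scale (SE; adjusted p = 0.00252, limma). *Pisd-ps2* (chr17:3076578-3084183) was 20.3, 18.6 and 19.3 RPKM against 7.81, 8.55 and 10.6 RPKM, a log2 difference of 1.04.

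*Pisd* itself (chr5:32736301-32785646) was 29.0, 26.6 and 28.4 RPKM in aged-repopulated and 18.7, 18.7 and 21.01 RPKM in young control libraries. The groups were separate in all 3 genes, and *Pisd* differed by 0.50 ± 0.06 (SE; adjusted p = 0.00252). Aged controls stood 1.43, 1.18 and 0.62 above young controls in *Pisd-ps1*, *Pisd-ps2* and *Pisd*, and the aged-repopulated against aged control differences of -0.18, -0.15 and -0.11 were not called (adjusted p from 0.15 to 0.37). Of the 50-base stretches of *Pisd-ps1*, 11.9% also occur in *Pisd*, and of those of *Pisd-ps2*, 10.2%, so reads of one may have been counted for another.

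Immediate early genes are induced within minutes by neuronal activity and stress. Of 34 listed genes, 9 were in the table. Of these, *Btg2* and *Dusp1* were lower, none was higher, and the median log2 difference of the 9 was -0.46. *Btg2*, an antiproliferative gene (chr1:134075170-134079120), was 3.90, 3.46 and 3.58 RPKM in aged-repopulated, 5.97, 8.20 and 9.34 RPKM in young control and 9.17, 12.1 and 14.0 RPKM in aged control brains. Every aged-repopulated library was below every library of both control groups. The log2 difference from young controls was -0.91 ± 0.16 (SE; adjusted p = 0.0130, limma), while aged controls stood 0.53 above young controls. With quantile normalization *Btg2* was at -0.44 and was not called (adjusted p = 0.198).

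*Dusp1*, a phosphatase that switches off MAP kinases (chr17:26505590-26562128), was 11.2, 11.5 and 12.6 RPKM after repopulation, 16.6, 21.2 and 24.4 RPKM in young brains and 20.3, 27.4 and 27.2 RPKM in aged controls. The log2 difference from young was -0.75 ± 0.14 (SE; adjusted p = 0.0181), and aged controls differed from young by 0.26 (adjusted p = 0.12). *Fos*, a subunit of the AP-1 transcription factor, had a difference of -0.68 and was not called (adjusted p = 0.0908). *Fos* was 9.46, 11.3 and 11.4 RPKM after repopulation and 12.1, 18.7 and 24.4 RPKM in young brains, without overlap. *Nr4a1*, an inducible nuclear receptor, was -0.52 (adjusted p = 0.12) and overlapped. The exception in direction was *Sgk1*, a glucocorticoid-induced kinase, at 0.08.

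The young controls were spread widely in these genes, with replicate 1 lowest and replicate 3 highest in *Btg2*, *Dusp1*, *Fos* and *Nr4a1*. The summed RPKM of the 9 genes was 136 to 146 in the aged-repopulated, 149 to 211 in the young control and 188 to 252 in the aged control libraries, so the aged-repopulated sums lay below those of both control groups. The calls depended on the young controls, as 4 of the 9 were called without young control replicate 1, 1 without replicate 3 and 0 without replicate 2. The median was -0.63, -0.45 and -0.30 without young control replicate 1, 2 and 3, and it stayed negative under the 3 scalings.

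A cyclic AMP response element, the site through which CREB drives many activity-induced genes, was searched as TGACGTCA, which reads alike on both strands. It was found before 2 of the 9 genes, which were *Btg2* and *Dusp1*, and before 1.6% of all promoters. Only these exact letters were searched, so variant sites were not counted, and the motif was chosen with earlier results known. A role of CREB was not tested. Both stretches lie on the minus strand of GRCm38.p6, at chr1:134079299-134079336 and chr17:26508593-26508630. The *Dusp1* stretch falls inside the gene interval given above, which comes from another annotation than the RefSeq start.
Btg2: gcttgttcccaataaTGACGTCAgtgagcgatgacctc
Dusp1: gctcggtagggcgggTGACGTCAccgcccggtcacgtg

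Of 5 vessel genes in the table, 1 was lower and none was higher, where 0.726% of all genes were called lower. *Slco1a4*, an organic anion transporter of brain endothelium (chr6:141805440-141856199), was 12.9, 11.6 and 11.0 RPKM in aged-repopulated, 15.6, 15.7 and 16.9 RPKM in young control and 16.2, 14.9 and 16.1 RPKM in aged control brains. All 3 aged-repopulated libraries lay below all 6 controls. The log2 difference from young was -0.41 ± 0.06 (SE; adjusted p = 0.00447, limma), that from aged controls was -0.38 (adjusted p = 0.012), and aged controls differed from young by -0.03 (adjusted p = 0.68). It was called under all 3 scalings and in every leave-out.

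The other 4 vessel genes of the table were not called on the deposited scale with all libraries. *Itm2a*, a membrane protein enriched in endothelium, was 27.3, 23.8 and 21.7 RPKM against 31.6, 31.5 and 29.6 RPKM, without overlap, and its difference of -0.34 had an adjusted p of 0.0735. It was called lower after centring (adjusted p = 0.0451), in the fit of the 6 libraries (adjusted p = 0.0415) and without aged control replicate 1 (adjusted p = 0.0406). In aged controls the *Itm2a* difference was -0.46. *Ackr1*, a chemokine receptor of venules, differed by -0.11 and *Igfbp7* by -0.07, with overlap in both, and *Ly6c1*, which is also in the interferon list, was at 0.06. The 5 vessel genes summed to between 74.5 and 88.9 RPKM after repopulation, 91.2 and 95.5 RPKM in young brains, and 89.7 and 95.2 RPKM in aged controls. Mean RPKM was 16.1 in young and 11.8 in aged-repopulated brains for *Slco1a4*, and 30.9 and 24.2 for the uncalled *Itm2a*. It was 26.6 and 24.6 for *Ackr1*, 10.4 and 9.82 for *Igfbp7* and 9.01 and 9.51 for *Ly6c1*. The lower sum thus did not come from *Slco1a4* alone. The list had a median log2 difference of -0.11, which stayed negative under the 3 scalings. The median was -0.17 without aged-repopulated replicate 1, the highest library of its group for all 5 genes.

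*Tfrc*, the transferrin receptor through which cells and the blood-brain barrier take up iron (chr16:32608920-32632794), was 23.3, 21.2 and 21.6 RPKM in aged-repopulated and 29.1, 26.1 and 28.3 RPKM in young control brains. The groups did not overlap, and the log2 difference was -0.32 (adjusted p = 0.0214), beside -0.34 in aged controls. The call was lost without aged-repopulated replicate 3 or any 1 of the young controls, with adjusted p values up to 0.0861.

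Of 32 listed genes of the circadian clock and of glucocorticoid response, 6 were in the table, with 1 called higher and 1 called lower. *Ciart*, a repressor of the circadian clock (chr3:95878503-95882251), was 8.45, 9.26 and 9.41 RPKM after repopulation, 11.5, 11.2 and 13.2 RPKM in young brains and 12.6, 11.2 and 10.7 RPKM in aged controls. It was lower in every aged-repopulated library than in any control, by -0.37 on the log2 scale from young (adjusted p = 0.0181), and aged controls differed from young by -0.06 (adjusted p = 0.48). *Klf15*, a glucocorticoid-induced transcription factor (chr6:90462576-90475238), was 10.3, 10.5 and 11.7 RPKM against 7.88, 8.66 and 9.11 RPKM, a log2 difference of 0.31 (adjusted p = 0.0158), beside 0.24 in aged controls.

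*Usp2* and *Tef*, which the clock drives in many tissues, differed by -0.10 and -0.06 and were not called. The *Ciart* call was lost without young control replicate 3 (adjusted p = 0.0609) and the *Klf15* call without young control replicate 2 (adjusted p = 0.0570). The clock factors BMAL1 and CLOCK bind the E-box CACGTG, which reads alike on both strands. It was found before 3 of the 6 genes, *Ciart*, *Klf15* and *Tef*, and before 6.04% of all promoters. This motif too was chosen with earlier results known. *Ciart* held 3 matches within the 250 bases, on the minus strand of GRCm38.p6 at chr3:95882324-95882359, chr3:95882266-95882301 and chr3:95882252-95882287, with the flanks of the last pair overlapping.
Ciart distal: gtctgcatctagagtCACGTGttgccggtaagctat
Ciart middle: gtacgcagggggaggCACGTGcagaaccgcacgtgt
Ciart proximal: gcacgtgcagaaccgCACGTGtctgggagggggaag

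Of 8 oligodendrocyte genes in the table, *Hapln2*, a link protein at the nodes of Ranvier, was higher and none was lower. Among all genes 4.21% were called higher and 0.726% lower. *Hapln2* (chr3:88021750-88027583) was 23.9, 19.2 and 23.5 RPKM in aged-repopulated and 18.2, 16.3 and 14.3 RPKM in young control brains. The groups were separate by a small margin, with a log2 difference of 0.43 (adjusted p = 0.0324), and the call was lost in 5 of the 9 leave-outs, with adjusted p up to 0.112. *Apod*, a lipid-binding lipocalin of glia, was 150, 86.4 and 110 RPKM against 78.9, 73.5 and 63.4 RPKM and was not called (log2 difference 0.64, adjusted p = 0.0735). *Anln* and the small heat shock protein gene *Cryab* had differences of 0.28 and 0.25 and were not called. The other 4 lay below 0 and were not called either, with *Opalin*, a membrane protein of myelinating cells, at -0.16, *Gpcpd1* at -0.16, *Pllp*, the myelin proteolipid plasmolipin, at -0.08 and *Nfasc* at -0.04. The median of the 8 was 0.11. Without aged-repopulated replicate 2 it was 0.17, 7 of the 8 lay above 0 and *Apod* was called as well as *Hapln2* (*Apod* log2 difference 0.83, adjusted p = 0.0278). In the fit of the 6 libraries *Gpcpd1* was called lower (adjusted p = 0.0280) and *Hapln2* was not called, and with quantile normalization no gene of the list was called (*Hapln2*, adjusted p = 0.0602). The 4 astrocyte genes, *Mt3*, *Glul*, *Gjb6* and *Sparc*, were between 0.06 and 0.21 on the log2 scale. None of the 4 was called on the deposited scale with all libraries, by limma with or without moderation, where the moderated test called 4.93% of all genes. An unadjusted p under 0.05 was found for 2 of the 4, beside 196 of all 689 genes. *Glul*, the glutamine synthetase of astrocytes, was called with a pseudocount of 10 (adjusted p = 0.0483) and without aged control replicate 2 (adjusted p = 0.0495).

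**Figure D4:**
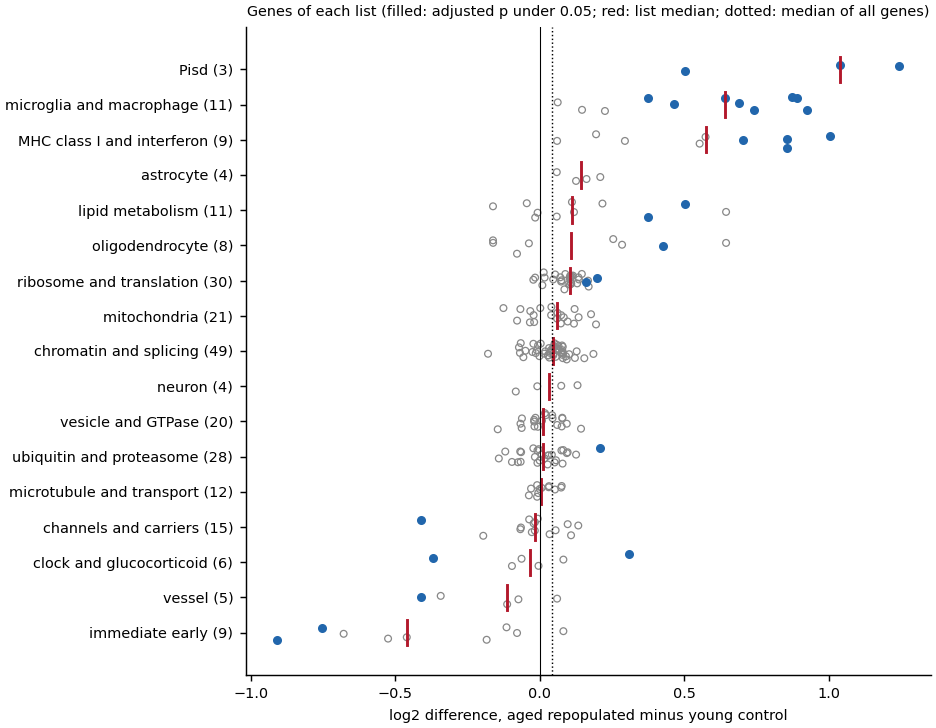
Log2 difference, aged repopulated minus young control (horizontal axis), for the genes of each list that are in the table, with their number in brackets. Filled points have an adjusted p under 0.05, red bars are list medians, and the dotted line is the median of all 689 genes (0.04). Microglial, MHC class I and interferon and Pisd genes lie to the right, immediate early genes to the left, and the microtubule and transport genes beside 0.

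The study named 12 genes of microtubules, motors and clathrin from these same libraries, in part for lying near the young level after repopulation, so that level is how they were chosen and their values are a description. None of the 12 was called by limma, with or without moderation, where the moderated test called 4.93% of all genes. Only 1, *Dnm3*, had an unadjusted p under 0.05, beside 196 of all 689 genes. Their log2 differences ran from -0.04 to 0.08, and the 95% intervals of all 12 lay between -0.15 and 0.16. No other setting called any of them. The microtubule and neurite genes *Map1a*, *Prepl*, *Ttll7*, *Clasp2* and *Nfasc* lay between -0.04 and 0.01, and *Cltc*, the clathrin heavy chain, was at -0.03. The kinesin genes *Kif1a*, *Kif1b* and *Kif21a* were at 0.05, 0.08 and 0.03, and *Dnm3*, a dynamin, was at 0.07. *Map1b*, a neuronal microtubule-associated protein (chr13:99421446-99516540), was 95.9, 102 and 108 RPKM in aged-repopulated and 105, 99.6 and 102 RPKM in young control brains. Its interval ran from -0.10 to 0.09, whereas aged controls differed from young controls by -0.25. For *Dync1h1*, the heavy chain of cytoplasmic dynein (chr12:110601452-110666945), the libraries were 50.4, 50.5 and 50.4 RPKM against 49.6, 49.4 and 48.8 RPKM, without overlap, a log2 difference of 0.03. The median of the 12 was 0.00 as deposited, -0.05 after centring, -0.04 with quantile normalization and 0.01 after the length correction.

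Neuronal identity genes were few in the table. *Gad1*, the enzyme that makes the transmitter GABA, was 129, 125 and 128 RPKM against 119, 130 and 115 RPKM, with overlap. *Rbfox3*, the neuronal nuclear antigen NeuN, was 49.3, 52.4 and 52.9 RPKM against 50.01, 51.9 and 53.6 RPKM, a log2 difference of -0.01 with an interval from -0.10 to 0.08. Aged controls differed from young controls in *Rbfox3* by 0.16. None of the 4 neuronal genes was called by limma with or without moderation, where the moderated test called 4.93% of all genes. Of the 4, 2 had an unadjusted p under 0.05, beside 196 of all 689 genes. *Snhg11*, a neuronal noncoding RNA, was 0.13 higher without overlap and was called in the fit of the 6 libraries (adjusted p = 0.0415) and without aged control replicate 1 (adjusted p = 0.0417), and *Ptprd*, a synaptic receptor phosphatase, was 0.08 lower without overlap.

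Of 30 ribosomal and translation genes in the table, 2 were called, both higher, where 4.21% of all genes were called higher. The median log2 difference of the 30 was 0.10. The mean was above the young level for 28, against 64.9% of all genes of the table. Every aged-repopulated library was above every young control for 18 of the 30, against 31.5% of all genes. With quantile normalization 19 of the 30 were above the young level, against 46.4% of the table. *Rpl35a* was 23.3, 22.5 and 23.1 RPKM in aged-repopulated and 20.2, 20.1 and 19.4 RPKM in young control brains (log2 difference 0.20, adjusted p = 0.0206). *Rps3a1* was 85.0, 82.8 and 86.1 RPKM against 76.3, 74.5 and 75.9 RPKM (0.16, adjusted p = 0.0454). Both genes had narrow groups that did not overlap. *Rpl35a* stayed above the young level in all 19 alternative settings, and *Rps3a1* in 18 of the 19. Neither gene was called without aged-repopulated replicate 1 or 3 or any 1 young control, and *Rps3a1* was not called without aged control replicate 3 either (adjusted p up to 0.0861 for *Rpl35a* and 0.125 for *Rps3a1*). The list had 0 calls in those 5 leave-outs, and 4 without aged-repopulated replicate 2. With quantile normalization *Rps3a1* stood at -0.00398 (adjusted p = 0.959) and no gene of the list was called, and after the length correction the list's median was 0.03 and none was called. Ribosomal protein genes have processed pseudogene copies, so their counts are uncertain.

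The other functional groups held few calls, beside 4.93% of all genes. At that share, lists of these sizes would hold few calls or none, so these counts are no finding about the functions. On the deposited scale with all libraries, no gene was called among 21 mitochondrial, 49 chromatin and splicing, and 20 vesicle and small GTPase genes. This held by limma with or without moderation. In these lists 6, 5 and 5 genes had an unadjusted p under 0.05, beside 196 of all 689 genes. Rescaling gave calls of lower level for *Kdm1a* of the chromatin list and *Arl4a* of the vesicle list under all 3 scalings, and for *Tomm70a* of the mitochondrial list after centring and quantile normalization. Fits of fewer libraries called *Uqcr10*, *Hnrnpm* and *Snx30* higher and *Hist3h2a* and *Arl4a* lower. Among mitochondrial genes *Uqcr10*, a subunit of respiratory complex III, was 92.7, 87.1 and 97.6 RPKM against 84.0, 80.2 and 80.5 RPKM (log2 difference 0.18, adjusted p = 0.0665). *Tomm70a*, an import receptor of the outer membrane, was lower by -0.13 (adjusted p = 0.0875). Among 28 ubiquitin and proteasome genes 1 was called, *Usp54*, beside 4.93% of all genes. *Usp54* was at 17.2, 15.2 and 15.9 RPKM after repopulation, 14.0, 13.8 and 13.5 RPKM in young and 14.5, 14.3 and 14.0 RPKM in aged controls. Every aged-repopulated library was above both control groups, by 0.21 on the log2 scale from young (adjusted p = 0.0225), and aged controls differed from young by 0.04 (adjusted p = 0.38). The *Usp54* call was lost without aged-repopulated replicate 1 or 3 or any 1 young control. After centring and with quantile normalization, 1 gene of the ubiquitin and proteasome list was called higher and 1 lower. Among 15 channels and carriers *Slco1a4* was the one gene called on the deposited scale with all libraries. After centring and with quantile normalization 2 of the list were called lower, *Slco1a4* among them. On the deposited scale *Kcnj10*, a potassium channel of astrocytes, was -0.20 (adjusted p = 0.0735).

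The remaining 10 called genes were in no list, and 9 of these were higher. *Itgb5*, an integrin subunit (chr16:33829665-33949338), was 15.9, 12.1 and 12.98 RPKM in aged-repopulated and 9.45, 10.5 and 9.01 RPKM in young control brains (log2 difference 0.45, adjusted p = 0.0212), and the call was lost without any 1 of the 3 young controls (adjusted p up to 0.0876). *Sat1*, the enzyme that acetylates spermidine and spermine (chrX:155213132-155216449), was 21.7, 21.1 and 22.0 RPKM against 18.9, 18.01 and 18.1 RPKM (0.22, adjusted p = 0.0081). It was the smallest of the 9 differences that were called in every leave-out. *Lamp2*, a lysosomal membrane protein (0.21), *Bcl6*, a transcriptional repressor (0.20), *Dnajc3*, a chaperone of the endoplasmic reticulum (0.20), *Acot13*, a thioesterase of acyl-CoA (0.18), *Tbc1d9b* (0.17), *Tspan14*, a tetraspanin (0.16), and *Fam133b* (0.15) completed the higher genes. *Lamp2*, *Acot13* and *Tspan14* were called under none of the 3 scalings and in 3, 3 and 2 of the 9 leave-outs. *Bcl6* and *Fam133b* were called under 1 of the scalings and in 5 and 4 leave-outs, *Tbc1d9b* under 2 and in 5, and *Dnajc3* under all 3 and in 7. Aged controls stood above young controls in the same 9 genes by 0.12 to 0.39 on the log2 scale. *Tfrc*, described above, was the lower gene of the 10.

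Transcript length moved with the difference. Across 686 genes with an annotated length, which are not independent replicates and share their libraries, Spearman's rho between length and the log2 difference was -0.31. It was -0.66 for the aged control against young control difference. The longest annotated transcript had a median of 1619 nucleotides for the 29 higher genes, 2743 nucleotides for the 5 lower genes and 3178.5 nucleotides for the table. After the correction for length, 23 of the 29 higher and all 5 lower genes were still called.

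**Figure D5:**
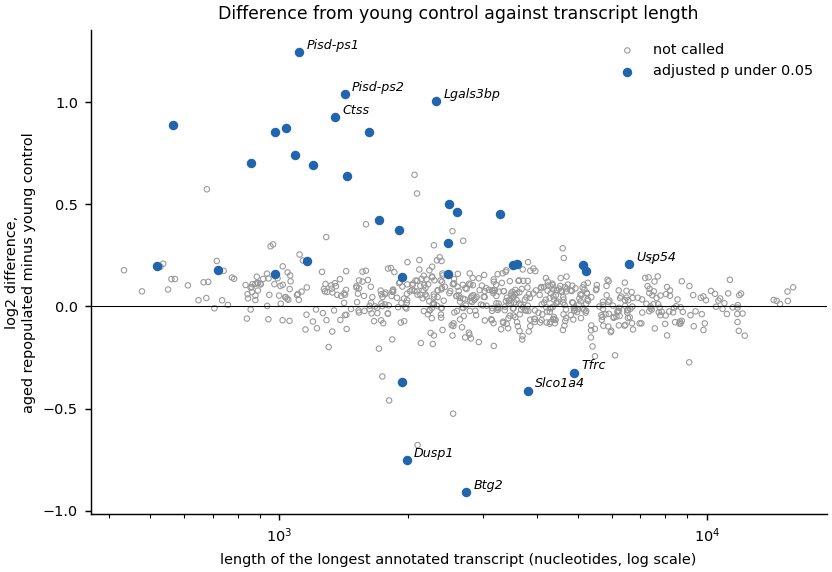
Log2 difference, aged repopulated minus young control (vertical axis), against the length of the longest annotated transcript (horizontal axis, nucleotides, log scale) for 686 genes. Filled points have an adjusted p under 0.05. The large positive differences lie at short lengths, and Spearman's rho over all genes is -0.31.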

How the data were processed

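RNA came from 1 hemibrain per mouse, and replicates are separate mice. The authors used CASAVA 1.8.2 for base calling and ELAND for alignment to mm10, derived RPKM, kept genes above 10 RPKM and deposited the RPKM of 689 genes that their linear model had called, with its F, t and p columns, which were not used. No value column was left unmapped (0), and no library pair was identical (0). No counts are given, and a search of 200 genes for steps of whole reads reached a mean cosine of at most 0.222, where whole reads give 1.

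Here log2(RPKM + 1), with a pseudocount of 1, entered the moderated test of limma 3.58.1 (R 4.3.3). All 9 libraries entered 1 fit, with a two-sided contrast, Benjamini-Hochberg adjustment over 689 genes and a threshold of 0.05. Differences on this scale understate changes of low genes. Alternatives were other pseudocounts, untransformed RPKM, a minimum mean of 20 RPKM, 3 rescalings, other variance models, the 6 libraries alone, and each library left out. The code was tested on simulated data. Coordinates and transcript lengths are from GENCODE M21 on GRCm38 (686 of 689 symbols matched, 19 through another symbol), and promoters are from RefSeq GRCm38.p6. Figures were drawn with matplotlib 3.10.9 in Python 3.11.15.

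Genes were named from every called gene, the 4 largest differences per list, the microglial and transport lists and the 5 largest uncalled differences. *Tef*, *Opalin*, *Gpcpd1*, *Pllp*, *Ly6e*, *Ly6a*, *Ly6c1* and the genes of the closing section were added once their values were known. The comparison, the lists, this rule and the motifs were chosen with earlier results of these data known. The values of 1 called gene are not reported here, although it is included in the counts.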

Additional observations from a re-analysis of the deposited data

How the results depend on the processing

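Of the 34 genes called between aged-repopulated and young control brains, 33 kept their direction under all 19 alternatives that could be fitted to them. The exception was *Rps3a1*, at -0.00398 with quantile normalization. The count of 34 (29 higher, 5 lower) became 61 (38 lower) after centring on the median, 55 (31 lower) after the correction for transcript length and 25 lower with quantile normalization (43 called, 18 higher). It became 6 (5 higher, 1 lower) with untransformed RPKM, 9 (8 higher, 1 lower) with an unmoderated model, and 22 (19 higher, 3 lower) among the 341 genes with a mean of at least 20 RPKM. With only the 6 libraries compared, 12 genes were lower. With 1 library left out, the count lay between 11 and 59, the higher genes between 9 and 51 and the lower genes between 2 and 12. The causes of these shifts were not tested. Pseudocounts of 0.1 and 10 gave 34 and 33 calls. Among the 74 named genes not called, 34 of 1381 alternative values changed sign, all without a call. No paired analysis was possible because the replicate numbers were given in accession order and the labels carry none. With 3 mice per group and no read depth, the median 95% interval was 0.10 wide on each side on the log2 scale.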

Other observations

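Rescaling the libraries moved a set of genes with small negative differences past the threshold. After centring on the median, quantile normalization and the correction for transcript length alike, 16 genes were called that were not called on the deposited scale, and all 16 stood below the young controls. Centring shifted every gene downwards by about the same amount relative to the young controls, so that genes gained there are lower by construction, and the common direction is no finding about them. They were singled out after their values were seen. *Ncam2*, a neural cell adhesion molecule, stood at -0.24 as deposited (adjusted p = 0.0615, limma) and between -0.29 and -0.25 after rescaling. *Ppp1r1a*, an inhibitor of protein phosphatase 1, stood at -0.20 (adjusted p = 0.0653), and *Tob1*, an antiproliferative relative of *Btg2*, at -0.18 (adjusted p = 0.0530). *Acss2*, which makes acetyl-CoA from acetate, stood at -0.17, and *Idh1*, the cytosolic isocitrate dehydrogenase, at -0.14 (adjusted p = 0.0642 for both). *Prmt8*, an arginine methyltransferase of neurons, was at -0.15, *Ampd2*, an AMP deaminase, at -0.12, and *Kdm1a*, a histone demethylase, at -0.07. *Emc6*, *Erlec1* and *Tmx3*, which act in the endoplasmic reticulum, were at -0.12, -0.09 and -0.12. *Ptn*, the growth factor pleiotrophin, was at -0.08, *Arl4a*, a small GTPase, at -0.15, *Pdzd8* at -0.12, *Itfg1* at -0.11 and *Tmem184c* at -0.10. On the deposited scale, the aged control against young control differences were between -0.33 and -0.10 for *Ncam2*, *Acss2*, *Idh1*, *Itfg1*, *Pdzd8*, *Tmx3*, *Ptn* and *Tmem184c*, between -0.02 and 0.07 for *Ppp1r1a*, *Prmt8*, *Emc6*, *Ampd2*, *Arl4a*, *Kdm1a* and *Erlec1*, and 0.14 for *Tob1*.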
